A study of Mus musculus with 8 samples.

Results

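Interferon regulatory factors (IRFs) are transcription factors that switch on interferon genes and the genes that interferons induce. The 8 mouse genes described here (Irf1, Irf2, Irf3, Irf4, Irf5, Irf7, Irf8 and Irf9) were chosen by symbol out of 55359 genes in the deposited table. Their measured values were not used in the choice, although earlier results of these data were known. They were measured by RNA-seq of poly(A)-enriched RNA in MLO-Y4 cells, an osteocyte-like mouse line grown on dishes coated with rat tail collagen. Osteocytes are the cells that live inside mineralized bone. The line is labelled wild-type, and this label was not checked here. Non-irradiated cells (4 libraries, called C5 to C8 after the numbers in the table) were compared with cells that received an Er:YAG laser at 6.0 J/cm2 for 1 min (4 libraries, L5 to L8). This pulsed infrared laser emits at 2940 nm, and a vertical distance of 25 cm lay between its emitter and the base of a 35-mm dish, in which cells had grown for 72 h. The culture medium was taken off before the exposure, and the labels do not say whether this was also done for the non-irradiated dishes. RNA was collected 6 h after irradiation, and no collection time is given for the non-irradiated cells. The labels do not say whether the 4 libraries of a group came from separate cultures, so p-values measure the spread between these libraries, which may be technical.

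As background, all IRF proteins share an amino-terminal DNA-binding domain that reads the interferon-stimulated response element, a repeat of GAAA. When cells sense foreign or misplaced nucleic acids, the kinases TBK1 and IKK-epsilon phosphorylate IRF3 and IRF7, which then turn on interferon genes. Secreted interferon acts back on the cell through the factor ISGF3, a complex that holds STAT2 and IRF9, and Irf7 is itself a target of ISGF3. IRF1 is induced by interferon gamma, IRF2 competes with IRF1 for the same sites, IRF5 acts below Toll-like receptors, and IRF4 and IRF8 work mainly in immune cells.

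Irradiated cells had lower levels of Irf1, Irf2, Irf7 and Irf9, a higher level of Irf5, and no change past the test in Irf3. Of the 6 genes with enough counts to be tested 4 fell and 1 rose. Across all 15164 tested genes 15% changed, 6.75% being lower and 8.22% higher (adjusted p under 0.05 in edgeR's quasi-likelihood test, with Benjamini-Hochberg adjustment). The declines ran from 1.13-fold for Irf9 to 1.33-fold for Irf2, and the rise of Irf5 was 1.24-fold. Irf4 and Irf8 were at or near 0 in both groups. Scaling by library totals only gave 1050 genes higher and 1345 lower, against 1247 and 1023 with the scaling used here (TMM, which sets library factors from the bulk of genes), and the same numbers of IRF genes were called, 4 lower and 1 higher.

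Library totals ran from 43786209 to 51734166 counts. The label osteocyte was met in part. The listed osteocyte markers Pdpn and Gja1 were at 487 ± 12.6 and 250.1 ± 5.18 CPM (counts scaled to a common library size, mean ± SD, n = 4) in non-irradiated cells. Sost, Mepe and Fgf23, which mark mature osteocytes, had 0 counts in all 8 libraries, and 1 further listed marker had too few counts to be tested. Whether the listed markers are particular to osteocytes was not tested. Of 6 tested osteocyte markers Pdpn, Gja1, Cd44 and Mmp14 rose (log2 fold changes 0.32, 0.35, 0.22 and 0.28), Capg fell (-0.16) and Phex did not pass the test. Across all tested genes 8.22% were higher and 6.75% lower. In bulk RNA of this kind, fewer cells that express a gene and less RNA per cell cannot be told apart.

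Levels of the members relative to each other were compared as CPM per kilobase of merged exons, since longer genes collect more reads. In non-irradiated cells Irf7 was highest at 59.5 ± 1.35 CPM per kilobase (SD, n = 4). It was followed by Irf1 at 28.0 ± 0.967 and Irf9 at 24.0 ± 0.604 CPM per kilobase. All 3 stood above Irf5 at 12.9 ± 0.491 and Irf3 at 11.3 ± 0.57 CPM per kilobase, and Irf2 was lowest of those tested at 2.79 ± 0.148. No neighbours in this order overlapped between libraries of non-irradiated cells. In irradiated cells Irf9 (21.2 ± 0.924) and Irf1 (21.2 ± 0.985 CPM per kilobase) overlapped, and the other neighbours did not. With the length of the longest coding transcript in place of merged exons, an alternative chosen after the data were seen, Irf3 (19.2 ± 0.966) came before Irf5 (16.7 ± 0.637 CPM per kilobase) in non-irradiated cells, so the order of that pair depends on the length used. Irf7 remained first and Irf2 sixth under both lengths.

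**Figure D1:**
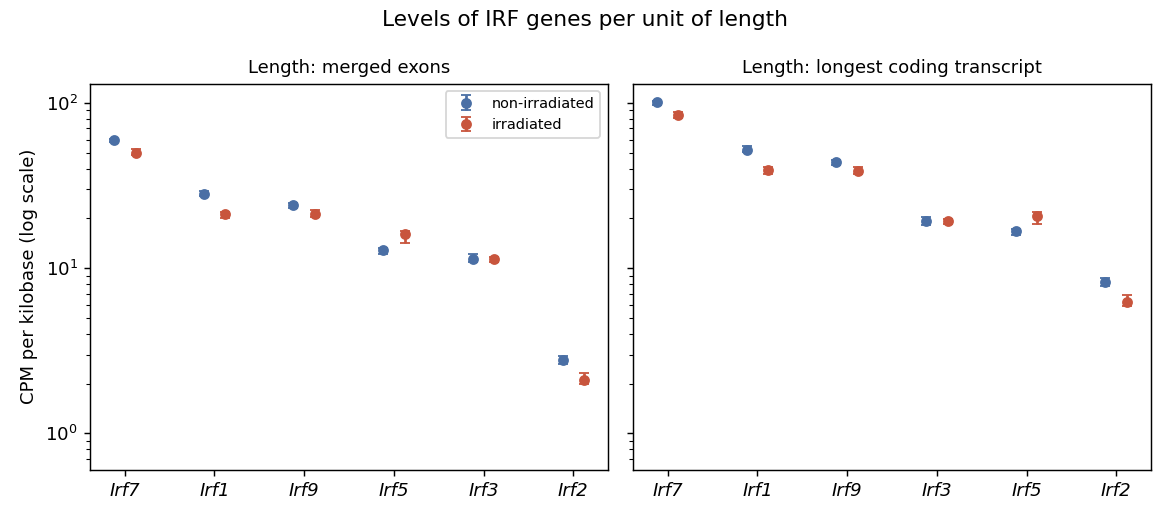
Levels of the 6 tested IRF genes in CPM per kilobase on a log axis, for 2 definitions of gene length, with non-irradiated cells in blue and irradiated cells in red (points are means of 4 libraries, bars run from the lowest to the highest library). Irf7 is at the top and Irf2 at the bottom in both panels, and Irf3 and Irf5 change places between panels in non-irradiated cells.

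Irf7, the factor that amplifies type I interferon production once it has been induced, was the most abundant member. Its levels were 218, 229, 224 and 229 CPM in C5 to C8 and 182, 198, 193 and 182 CPM in L5 to L8. Every irradiated library lay below every non-irradiated one. Means were 225 ± 5.11 and 189 ± 8.11 CPM (SD, n = 4), so that Irf7 declined 1.19-fold with an edgeR adjusted p of 4.72e-05 (log2 fold change -0.25 with an SE of 0.036). Phrf1, a gene on the opposite strand that shares 45 exon bases (1.19%) with Irf7, rose over the same libraries, from 87.2 ± 3.32 to 100.4 ± 4.21 CPM (log2 fold change 0.20, edgeR adjusted p = 0.00255). Whether counting used strand is not given in the sources used here, so reads in such shared bases cannot be assigned to either gene.

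Irf9, the DNA-binding subunit of ISGF3, declined least of the members that fell. It stood at 129, 125, 130.2 and 133 CPM in the non-irradiated libraries and at 113, 121, 109 and 113 CPM in the irradiated ones. The groups did not overlap, although L6 came within a few CPM of C6. Means were 129.5 ± 3.25 and 114 ± 4.98 CPM, a 1.13-fold decline with an edgeR adjusted p of 0.00295 (log2 fold change -0.18 with an SE of 0.039). Rnf31, which lies on the same strand and shares 123 exon bases with Irf9, gave a log2 fold change of -0.027 (edgeR adjusted p = 0.856).

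Irf1 is an activator induced early by interferon gamma, and it had the lowest p of the members. Its levels were 111, 108, 117 and 109 CPM in C5 to C8 and 79.4, 87.4, 82.8 and 87.5 CPM in L5 to L8. The lowest non-irradiated library was well above the highest irradiated one. The mean of 111 ± 3.85 CPM fell by 24.3% to 84.3 ± 3.92 CPM, with an edgeR adjusted p of 1.75e-06 (log2 fold change -0.40 with an SE of 0.043). Gm17334, a predicted gene on the opposite strand that shares 135 exon bases (3.4%) with Irf1, was at 3.03 ± 0.342 and 1.88 ± 0.463 CPM (log2 fold change -0.68, edgeR adjusted p = 0.0457), and it lost its call when any 1 of the 8 libraries was left out (adjusted p up to 0.131).

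Irf2, which binds the same sites as Irf1 and mostly represses there, fell by a like amount from a much lower level. The non-irradiated libraries gave 21.7, 21.4, 19.6 and 19.8 CPM and the irradiated ones 14.7, 17.05, 15.5 and 14.7 CPM. Again the groups did not overlap. Means were 20.6 ± 1.09 and 15.5 ± 1.1 CPM, a decline of 1.33-fold with an edgeR adjusted p of 0.0011 (log2 fold change -0.41 with an SE of 0.079).

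The promoter window of Irf2 is shown because it holds both binding motifs searched for, and 1 of the 2 windows of Irf1 because it holds the second motif. The window of Irf5, the member that rose, is shown beside them and holds neither. Each runs from 250 bases before to 50 after the gene's start, 5′ to 3′ on the gene's strand, from RefSeq on build GRCm38.p6, which is not the build named in the submitters' processing notes (GRCm39). Capitals mark GAAA followed after any 2 bases by another GAAA, the core of the interferon-stimulated response element, and TTCNNNGAA, the gamma-activated site of genes that respond to interferon gamma.
Irf1 (chr11:53769764-53770063, + strand): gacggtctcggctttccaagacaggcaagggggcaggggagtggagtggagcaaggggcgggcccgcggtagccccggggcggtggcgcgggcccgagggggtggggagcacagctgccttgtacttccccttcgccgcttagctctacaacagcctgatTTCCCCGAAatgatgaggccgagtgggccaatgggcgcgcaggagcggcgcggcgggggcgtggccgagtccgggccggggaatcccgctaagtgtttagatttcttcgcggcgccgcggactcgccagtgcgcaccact
Irf2 (chr8:46739495-46739794, + strand): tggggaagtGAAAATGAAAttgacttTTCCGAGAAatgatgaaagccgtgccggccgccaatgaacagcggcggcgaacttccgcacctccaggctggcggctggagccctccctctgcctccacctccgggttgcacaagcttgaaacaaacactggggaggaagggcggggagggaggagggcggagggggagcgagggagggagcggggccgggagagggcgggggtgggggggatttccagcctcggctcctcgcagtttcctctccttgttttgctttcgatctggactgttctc
Irf5 (chr6:29526375-29526674, + strand): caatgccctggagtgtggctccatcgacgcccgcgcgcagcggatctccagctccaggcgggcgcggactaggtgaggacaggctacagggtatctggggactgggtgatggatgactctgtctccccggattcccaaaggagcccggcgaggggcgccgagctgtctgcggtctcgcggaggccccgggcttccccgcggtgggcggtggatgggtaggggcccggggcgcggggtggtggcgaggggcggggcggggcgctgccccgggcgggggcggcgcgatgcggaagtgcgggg
In Irf1 the capitals are TTCCCCGAA, beginning 90 bases before the start. In Irf2 they are GAAAATGAAA, beginning 241 bases before the start, and TTCCGAGAA, beginning at 224, with no overlap between them. Both strands were searched, in 32851 promoter windows of 27025 genes. The repeat of GAAA was found in 3.44% of all windows and TTCNNNGAA in 8.3%. All 8 members had at least 1 window, 11 in all. The first motif was in 1 of these windows (Irf2), and the second in 3, that of Irf2, 1 of the 2 windows of Irf1 and 1 of the 2 windows of Irf8. The other windows of Irf1 and Irf8, not printed, held neither. The windows of Irf3, Irf4, Irf7 and Irf9 held neither set of letters. A match describes the letters of the window and does not show binding.

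Irf3, the factor that is present before any stimulus and starts the first wave of interferon, did not pass the test. Its levels were 39.2, 37.3, 37.8 and 41.7 CPM in C5 to C8 and 39.6, 40.2, 37.4 and 38.9 CPM in L5 to L8, all within the same range. Means were 39 ± 1.96 and 39 ± 1.2 CPM (log2 fold change 0.00095, 95% interval -0.12 to 0.12, edgeR adjusted p = 0.994). Bcl2l12, which lies head to head with Irf3 and shares 88 exon bases with it, gave a log2 fold change of 0.02 (edgeR adjusted p = 0.93).

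Irf5, which drives inflammatory cytokine genes below Toll-like receptors and MyD88, was the member that rose. It stood at 35.3, 37.9, 37.7 and 38.6 CPM in the non-irradiated libraries and at 48.1, 41.3, 48.7 and 47.9 CPM in the irradiated ones. All irradiated libraries were above all non-irradiated ones, with L6 closest to them. The mean of 37.4 ± 1.43 CPM rose 1.24-fold to 46.5 ± 3.52 CPM, with an edgeR adjusted p of 0.00108 (log2 fold change 0.32 with an SE of 0.061). Without L6 the log2 fold change was 0.37. Tnpo3, a nuclear import gene on the opposite strand, shares 411 exon bases (14.1%) with Irf5 and was the more abundant at 174 ± 6.73 and 177 ± 5.8 CPM (log2 fold change 0.023, edgeR adjusted p = 0.762).

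**Figure D2:**
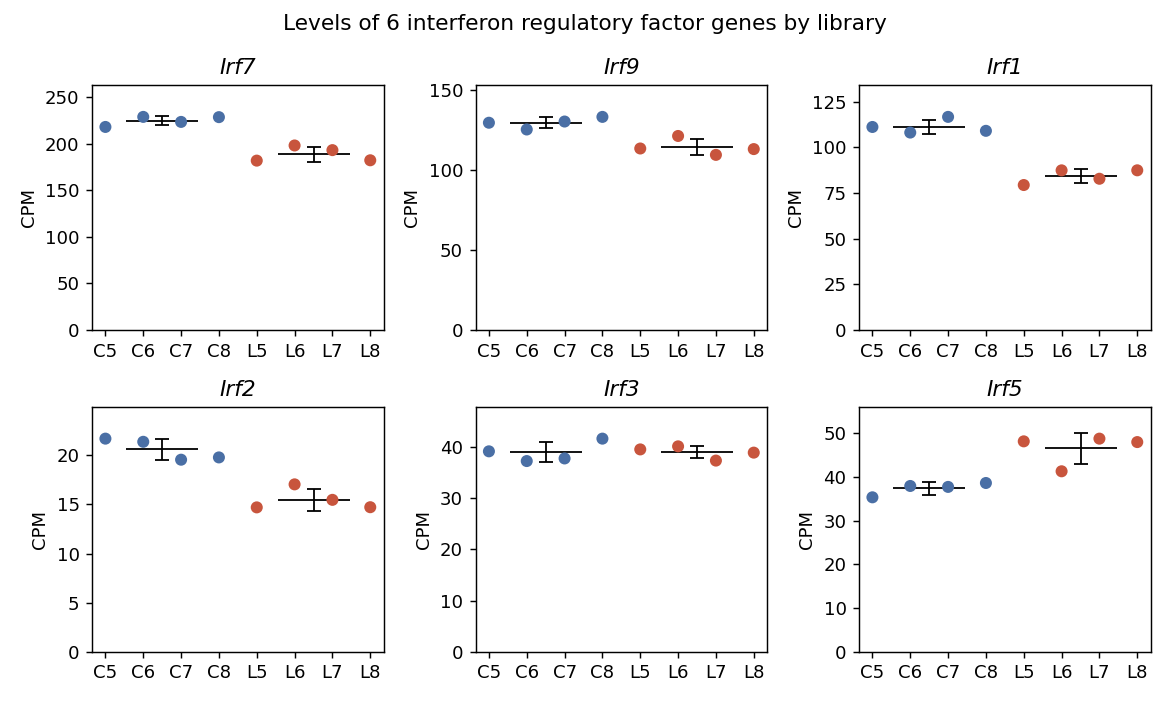
CPM of the 6 tested IRF genes in each library, with non-irradiated libraries (C5 to C8) in blue and irradiated ones (L5 to L8) in red, and black lines for the mean ± SD of 4 libraries. The groups are apart and lower after irradiation for Irf7, Irf9, Irf1 and Irf2, apart and higher for Irf5, and overlap for Irf3.

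Across members, 4 of the 6 tested genes had all irradiated libraries below all non-irradiated ones, against 8.78% of tested genes, and 1 had them all above, against 9.76%.

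Irf4 and Irf8, factors of lymphocytes, dendritic cells and macrophages, were not detectable at this depth. Irf4 had 0 counts in every library. The depth allows its level to be at most 0.0685 CPM (the worth of 3 counts in the library with the lowest total), or 0.274 CPM if a fragment adds 4 counts. Irf8, which in macrophage-lineage cells restrains osteoclast formation, had 1 count in C7 and 0 elsewhere. Such limits cover counting error only. Among 14 markers of lymphoid, myeloid and dendritic cells 9 had 0 counts in all libraries, including Ptprc (the pan-leukocyte gene CD45), Adgre1, Itgam and Tyrobp. A further 3 were below the filter, of which Cd79a reached 23 counts in L6 and had 0 in the non-irradiated libraries. The marker that moved was Csf1r, the receptor for colony-stimulating factor 1, at 14.2 ± 1.17 and 26.2 ± 1.2 CPM (log2 fold change 0.88, edgeR adjusted p = 1.06e-07), and Cd68 did not pass the test. Summed over the list, the level ran from 17.4 to 21 CPM in non-irradiated and from 28.1 to 31.4 CPM in irradiated libraries, and this difference is mostly Csf1r.

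Ratios between members within a library need no scaling, and they set the members apart from each other. All 15 pairs of the 6 tested genes were compared by an exact two-sided permutation test of the log2 ratio over the 70 relabellings of 8 libraries, which cannot go below p = 0.0286. This smallest exact permutation p was reached in 12 pairs (adjusted over the 15 pairs, p = 0.0357). The pairs reuse the same 6 genes, 5 of which were called on their own, so the pairs are not independent of those calls. The share of such pairs among all tested genes was not computed. The ratio of Irf3 to Irf7, an early against an amplifying factor, was 0.18, 0.163, 0.169 and 0.182 in C5 to C8. It was 0.217, 0.203, 0.193 and 0.214 in L5 to L8, all higher (log2 shift 0.25, exact permutation p = 0.0286). The ratio of Irf3 to Irf5 went the other way, from between 0.984 and 1.11 to between 0.767 and 0.973 (log2 shift -0.31, exact permutation p = 0.0286).

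The pairs that did not pass were made up of genes that fell together. Irf1 to Irf2, activator to repressor of shared sites, ran from 5.06 to 5.97 in non-irradiated and from 5.13 to 5.94 in irradiated libraries (log2 shift 0.012, exact permutation p = 0.914). Irf7 to Irf9 ran from 1.68 to 1.83 and from 1.6 to 1.77 (log2 shift -0.07, exact permutation p = 0.114). Irf1 to Irf7 ran from 0.472 to 0.522 and from 0.429 to 0.48 (log2 shift -0.15, exact permutation p = 0.0857). Both Irf1 and Irf2 declined more than Irf9, with log2 shifts of -0.22 and -0.23 in their ratios to it (exact permutation p = 0.0286 each). Counted per kilobase, Irf5 made up 8.92% to 9.46% of the summed level of the 8 members in non-irradiated and 11.3% to 13.9% in irradiated libraries. The share of Irf1 went from between 19.5% and 21.1% to between 16.7% and 18.2%. That of Irf9 overlapped, at 16.9% to 17.6% and 16.6% to 18%. A share of a sum also moves when other members change. The share of Irf3, whose own level did not change past the test, went from between 7.86% and 8.6% to between 8.9% and 9.64%.

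**Figure D3:**
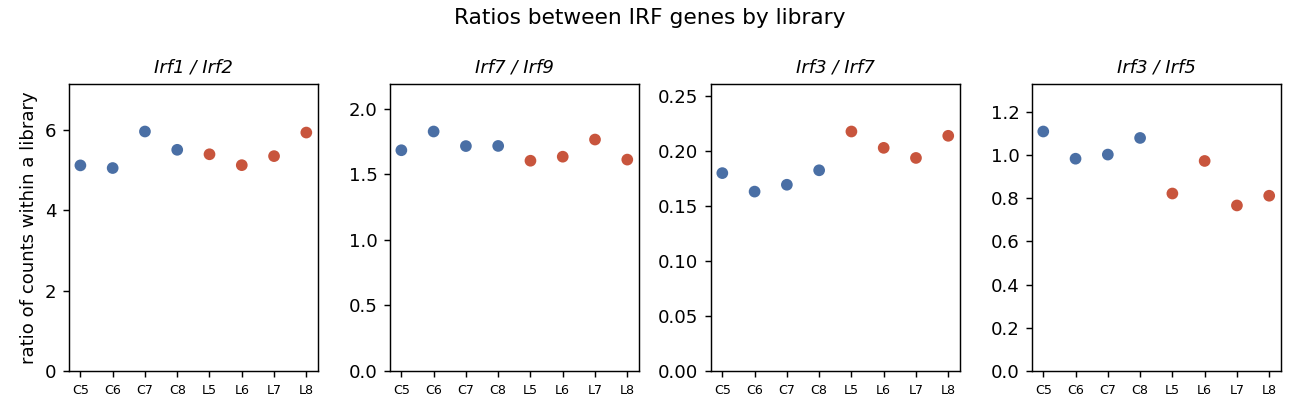
Ratio of the deposited counts of 2 IRF genes within each library, for 4 pairs, with non-irradiated libraries in blue and irradiated ones in red and no unit on the axis. Irf1 to Irf2 and Irf7 to Irf9 overlap between the groups, Irf3 to Irf7 is higher and Irf3 to Irf5 lower in every irradiated library.

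Genes that act with IRFs in interferon signalling moved in both directions, as did all tested genes (6.75% lower and 8.22% higher). Of 13 genes for ISGF3, interferon receptors and their kinases and inhibitors 2 fell, 2 rose and 9 did not pass the test, with a median log2 fold change of -0.020 against -0.0065 over all tested genes. Those that fell were Stat2 (360.1 ± 12.6 to 277 ± 4.89 CPM, log2 fold change -0.38, edgeR adjusted p = 5.58e-08), a partner of IRF9, and Usp18, a brake on the interferon receptor (log2 fold change -0.31). Jak1, a kinase of interferon and other cytokine receptors, rose 1.56-fold, from 305.5 ± 14.4 to 478 ± 12.3 CPM (edgeR adjusted p = 2.24e-10). Socs3, a feedback inhibitor of cytokine signalling, rose 1.36-fold. The receptor genes Ifnar1, Ifnar2, Ifngr1 and Ifngr2 did not pass the test, with log2 fold changes of 0.017, 0.025, -0.094 and 0.086.

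Upstream of IRF3, IRF5 and IRF7, 5 of 18 tested genes fell, against 6.75% of all tested genes. None rose, and 13 did not pass the test (median log2 fold change -0.051). The genes that fell were mostly nucleic acid receptors. Dhx58, which encodes the RNA-binding protein LGP2, was 1.4-fold lower at 77.3 ± 7.07 against 107.9 ± 1.9 CPM (log2 fold change -0.48, edgeR adjusted p = 2.67e-06). Tlr3 (log2 fold change -0.26), the RIG-I gene Ddx58 (-0.22) and the MDA5 gene Ifih1 (-0.17) also fell. Slc15a4, an endolysosomal transporter needed for Toll-like receptor signalling to IRF5, fell too (log2 fold change -0.24, edgeR adjusted p = 0.0261) but lost its call when C7, L6, L7 or L8 was left out (the adjusted p was highest, 0.113, without C7). The kinase genes Tbk1 and Ikbke gave log2 fold changes of -0.071 and -0.078, and the adaptor genes Mavs, Ticam1 and Myd88 gave -0.049, 0.15 and 0.012, none past the test. Tlr7 had 3 and 17 counts summed over the libraries of each group and Tlr9 had 14 and 12, below the filter.

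Among genes for partners and cofactors of IRF proteins 3 of 12 tested fell, against 6.75% of all tested genes. Whether so small a count differs from that share was not tested. None rose and 9 did not pass the edgeR test (median log2 fold change -0.023). Ifi35, an interferon-induced leucine zipper protein, was at 134 ± 1.99 and 103 ± 4.08 CPM (log2 fold change -0.38, edgeR adjusted p = 7.14e-07). Trim21, a ubiquitin ligase for IRF proteins, declined 1.23-fold (log2 fold change -0.30, edgeR adjusted p = 0.000216). Batf2, a leucine zipper factor that pairs with IRF1, was low at 1.2 ± 0.248 and 0.552 ± 0.183 CPM (log2 fold change -1.13, edgeR adjusted p = 0.0482), and it lost its call when any library other than L7 was left out (the adjusted p was highest, 0.127, without C6). The coactivator genes Ep300 and Crebbp gave log2 fold changes of 0.096 and 0.093, neither past the test. Spi1, the partner of IRF4 and IRF8 in immune cells, had 6 counts over the non-irradiated and 0 over the irradiated libraries.

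Targets of IRF factors were lower in most cases, against 6.75% of all tested genes. Of 25 interferon-stimulated genes with a response element 23 fell, none rose and 2 (Rtp4 and Oasl1) did not pass the test, with a median log2 fold change of -0.27. Oasl1 had all irradiated libraries above all non-irradiated ones (log2 fold change 0.27, edgeR adjusted p = 0.124). Rtp4 overlapped between the groups (log2 fold change -0.016). The largest declines were in Mx1, an antiviral GTPase (log2 fold change -0.89, edgeR adjusted p = 0.00136), and in the antiviral genes Ifit3b and Ifit3 (-0.78 and -0.77), followed by Oas3, an enzyme that senses double-stranded RNA (-0.45), and the nucleotide kinase gene Cmpk2 (-0.44). These Ifit genes are close copies that can share reads. Of 18 tested targets of IRF1 in the interferon gamma response 16 fell, none rose and 2 (Cd274 and Il15) did not pass the test (median log2 fold change -0.31). The chemokine gene Cxcl10 was 1.58-fold lower (edgeR adjusted p = 3.65e-05), the immunoproteasome subunit genes Psmb9 and Psmb10 had log2 fold changes of -0.44 and -0.40 (edgeR adjusted p = 0.00062 and 1.2e-05), and Tap1, a peptide transporter, and Igtp, an immunity-related GTPase, were 1.3-fold and 1.31-fold lower. Cd274 sat at the threshold with an edgeR adjusted p of 0.05. In the 4 lists where none rose by edgeR, the genes higher at an unadjusted p under 0.05 numbered 1 upstream of IRF3, IRF5 and IRF7, 2 among partners, 1 among interferon-stimulated genes and 0 among IRF1 targets, and DESeq2 and limma-voom called 0 higher in each list. Both target lists hold genes known to respond to interferon, and results of these data were known when they were chosen. Genes that fell in the other lists can be interferon-induced as well, as Ifi35 is. Declines in different lists are therefore not independent of each other.

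**Figure D4:**
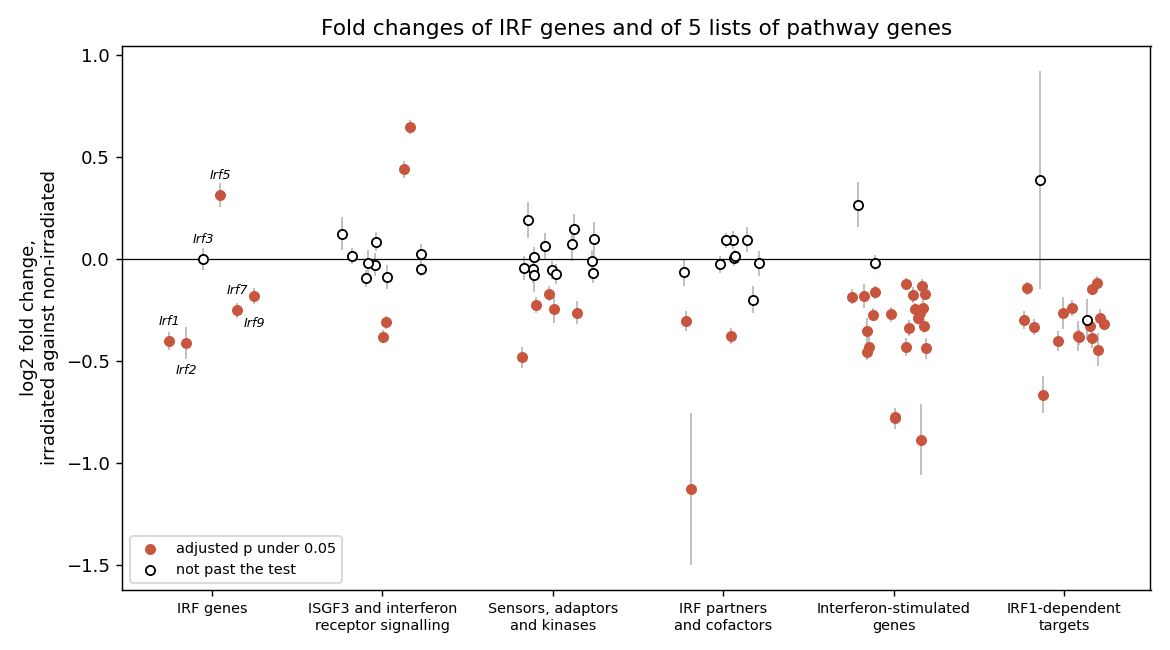
Log2 fold change of irradiated against non-irradiated cells for each tested IRF gene and each tested gene of 5 pathway lists, where bars are the standard error, filled red points passed the edgeR test at an adjusted p under 0.05 and open points did not. Irf5 is the filled point above 0 among IRF genes, Jak1 and Socs3 are those above 0 in the second column, and 23 of 25 interferon-stimulated genes are filled and below 0.

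Interferon genes themselves were near the detection limit. Of 21 genes 17 had 0 counts in every library, among them Ifng. Ifnb1, the interferon gene that IRF3 and IRF7 switch on first, had 12, 7, 4 and 0 counts in C5 to C8 and 20, 11, 7 and 24 in L5 to L8, and the groups overlapped (edgeR adjusted p = 0.263). Ifnz, a type I interferon gene, had 103 counts over the non-irradiated and 146 over the irradiated libraries (edgeR adjusted p = 0.533).

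Genes whose profile over the 8 libraries was most like that of a member were found by the root mean square difference of log2 CPM, each gene centred on its non-irradiated mean. Other IRF genes, genes with a predicted-gene or clone-type name and genes without a symbol were left out of the search. For Irf7 they were Ifit1, Ube2l6 and Irak1bp1, which differed by 0.028, 0.029 and 0.032. For Irf9 they were Gabarap, Apol9a and Tceal9 (0.026, 0.026 and 0.028). Irf1 was most like Sqstm1, Fads1 and Fasn (0.045, 0.049 and 0.05). Irf2 was most like Gbp2b, Pacs2 and Herc6 (0.043, 0.05 and 0.057), and Irf5 like Pprc1, Dgcr8 and Dmpk (0.048, 0.05 and 0.052). All were called in the direction of their member, which follows from choosing them by likeness over the same libraries and is not a separate result. Irak1bp1 lost its call when C5, C8, L5, L7 or L8 was left out (the adjusted p was highest, 0.0752, without L8).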

How the data were processed

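The authors deposited 1 table of estimated counts, whole numbers per gene with no normalization, for 8 libraries of poly(A)-enriched RNA. The submitters' processing notes name Trimmomatic 0.39, FastQC 0.11.9, HISAT2 2.2.1, StringTie 2.1.7, DESeq2 1.32.0 and the build GRCm39; their settings, the annotation and the use of strand are not stated there. Deposited counts of 4 outnumber those of 3 and of 5 (6096 against 4006 and 2428), and at means of 5 to 100 the median variance was 4.21 (non-irradiated) and 4.32 (irradiated) times the mean, so a fragment may add about 4 counts. Columns carry numbers 5 to 8 and titles 1 to 4, so a column shows its group and not which sample it is.

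Symbols and lengths came from GENCODE M21 (52083 of 55359 identifiers matched; the rest held 0.362% of counts). No rounding was needed. Genes were kept by filterByExpr (minimum count 10), scaled by TMM and fitted with edgeR 4.0.16 (glmQLFit, robust, group as the only term) in R 4.3.3, with Benjamini-Hochberg adjustment over 15164 genes and a threshold of 0.05. CPM uses TMM-scaled totals; SE is the size of the log2 fold change divided by the root of F. In simulated data with this comparison's library sizes and 15164 genes, 62.7% of 67 genes changed 1.25-fold and all 67 changed 1.5-fold were recovered. Unchanged genes made up 11 of the calls (5.91%). The changed genes were at 5 CPM or more and every gene was given the same variability, so recovery of lower or more variable genes was not tested.

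The members, gene lists and naming rule were chosen with earlier results of these data known. The rule named every member, from each list up to 5 called genes by size of change (2 by p where none was called), genes overlapping a member, and 3 genes most like each called member; other list genes named were chosen after their values were seen. A further gene of the family and some genes of the lists are not reported here, and the lists are counted without them. Alternatives were other scalings (DESeq2 size factors, library totals, upper quartile), DESeq2 1.42.0, limma-voom (limma 3.58.1), other filters, counts divided by 4, a replicate block and leaving out each library.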

Additional observations from a re-analysis of the deposited data

Results flagged for a closer look

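In 7 of 112 groups of 4 libraries looked at (56 genes taken by the naming rule), the highest or lowest library stood far from the other 3 for the range of its group, by a criterion that chance meets in about 1 group in 20. Among IRF genes this was Irf5 in L6, at 41.3 CPM where the other irradiated libraries lay between 47.9 and 48.7 CPM. L6 was also the irradiated library nearest the non-irradiated ones for Irf2, Irf7 and Irf9 (17.05, 198 and 121 CPM), without meeting the criterion. For Irf1 the nearest was L8 (87.46 CPM), just above L6 (87.44 CPM). Whether L6 stood apart over many genes was not tested. Ifit3b was also apart in L6, at 77.6 CPM, above the other irradiated libraries, whose nearest was at 68 CPM. The remaining values were Socs3 in L7 (166 CPM), Stat2 in C8 (341 CPM), Phrf1 in L8 (106.6 CPM), Gbp2b in C6 (303 CPM) and Dgcr8 in C6 (58.9 CPM).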

How the results depend on the processing

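Irf1, Irf2, Irf5, Irf7 and Irf9 kept their direction and their call in each of the 17 alternatives, 8 of which left out 1 library. The highest adjusted p was 0.000166 for Irf1, 0.00694 for Irf2, 0.00703 for Irf5, 0.000649 for Irf7 and 0.0215 for Irf9 (without L7). Irf3 passed in none, and its log2 fold change, near 0, was -0.022 with library totals alone and -0.0083 with upper-quartile scaling, and ran from -0.020 to 0.035 when 1 library was left out. Over the 17 alternatives all tested genes called lower numbered 696 to 1345, and those called higher 976 to 1501. Interferon-stimulated genes called lower ran from 21 to 23 and IRF1 targets from 14 to 17. Genes upstream of IRF3, IRF5 and IRF7 called lower ran from 4 to 5, and partners from 2 to 4. With the length of the longest coding transcript, Irf3 took place 4 and Irf5 place 5 in non-irradiated cells, and Irf1 place 2 and Irf9 place 3 in irradiated cells. With the column number as a replicate block, 4 IRF genes were lower and 1 higher, as without it. Slc15a4, Batf2, Gm17334 and Irak1bp1 lost their calls under the block (adjusted p = 0.0583, 0.0747, 0.0694 and 0.061), as Batf2 and Gm17334 did with every gene of at least 1 count kept (0.0605 and 0.0649). Whether same-numbered libraries were handled together is not known. Correlations of their deviations, from -0.046 to 0.0014, cannot decide it. Depth limits what can be said of Irf4, Irf8 and the interferon genes.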
